A study of Rattus norvegicus with 6 samples.

Results

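Hypoxia-inducible factors (HIFs) and their principal targets are described here by 10 genes chosen by name: the alpha subunits Hif1a and Epas1, the prolyl hydroxylases Egln1 and Egln3, and the targets Vegfa, Adm, Bnip3, Ndrg1, Pdk1 and Ankrd37. Of these 10, 9 had probes that matched by RefSeq accession, with 18 probes among the 61657 on the array. Egln1 matched no probe and was not analysed here. All 18 probes passed the filter on dim signals, being well above background on each of the 6 arrays. The tissue was kidney cortex from male Sprague-Dawley (Crl:CD(SD)) rats bought at 5 weeks of age. In 3 rats phenolphthalein, a triarylmethane dye once used as a laxative, was given at 1000 mg/kg/day for 4 weeks, and in 3 rats the vehicle, corn oil, for 4 weeks. No genetic modification is named for either group, and every rat had its own array.

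HIFs are transcription factors made of an oxygen-regulated alpha subunit and the constant partner ARNT. When oxygen is ample, prolyl hydroxylases of the EGLN family mark the alpha subunit, and the von Hippel-Lindau protein then directs it to the proteasome; when oxygen is short, the alpha subunit persists and switches on genes of blood vessel growth, glycolysis and mitochondrial turnover. The kidney works at a low oxygen tension for a well-perfused organ and is the main adult source of erythropoietin. Since the alpha subunits are controlled largely as proteins, their transcripts need not follow their activity, and the arrays measured transcripts alone.

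HIFs bind the core letters ACGTG or GCGTG, which were searched on both strands of the RefSeq promoter windows of GRCr8, 250 bases before to 50 after each start. Windows were found for 9 of the 10 genes, 10 windows in all, since Vegfa has 2 starts in the table and Ndrg1 has none. Either motif lay in 5 of these 10 windows, and in 41.6% of the 33469 windows of that length in the table. The windows of Ankrd37, Hif1a and Vegfa are shown because these genes held the probes with the lowest p among the 10. Capitals mark motif matches on either strand, 5′ to 3′ on the gene's strand, and CACGTG is a match on both strands at once.
Ankrd37 chr16:53001257-53001556, + strand: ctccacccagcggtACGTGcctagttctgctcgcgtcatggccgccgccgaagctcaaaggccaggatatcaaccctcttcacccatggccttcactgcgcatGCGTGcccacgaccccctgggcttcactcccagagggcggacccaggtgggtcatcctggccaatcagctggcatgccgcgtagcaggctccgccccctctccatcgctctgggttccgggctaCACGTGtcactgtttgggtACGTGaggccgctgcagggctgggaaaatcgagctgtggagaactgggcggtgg
Hif1a chr6:98359648-98359947, + strand: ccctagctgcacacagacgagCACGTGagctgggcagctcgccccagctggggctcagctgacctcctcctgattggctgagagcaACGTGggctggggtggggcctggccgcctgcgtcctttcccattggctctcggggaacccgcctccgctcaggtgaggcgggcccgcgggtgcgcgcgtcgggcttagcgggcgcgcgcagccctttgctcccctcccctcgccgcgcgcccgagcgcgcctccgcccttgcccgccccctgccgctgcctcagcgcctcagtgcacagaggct
Vegfa chr9:22452604-22452903, + strand: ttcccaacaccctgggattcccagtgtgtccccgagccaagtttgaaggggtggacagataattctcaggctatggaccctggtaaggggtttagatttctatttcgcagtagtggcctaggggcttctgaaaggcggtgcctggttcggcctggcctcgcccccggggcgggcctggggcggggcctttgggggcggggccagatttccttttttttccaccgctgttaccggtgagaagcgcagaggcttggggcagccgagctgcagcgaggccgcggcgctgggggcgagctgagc
Ankrd37 had 5 matches, 4 of ACGTG and 1 of GCGTG, the nearest to the start beginning 4 bases before it. Hif1a had 3, all of ACGTG. Bnip3 and Pdk1 had 4 each and Egln1 had 2, while the letters were in neither Vegfa window nor in those of Adm, Egln3 and Epas1. A match is a description of the sequence and does not show binding. Sites outside these short windows were not searched, so a window without a match does not show that the gene lacks HIF sites.

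Values are log2 processed intensities relative to the 75th percentile of each array, so that 0 is that percentile, and differences are phenolphthalein minus vehicle. Between 64.8% and 72.1% of an array's probes were well above background. Of 3 slides in use, 1 carried phenolphthalein replicate 1, 1 carried phenolphthalein replicates 2 and 3, and 1 carried all vehicle arrays. No slide carried both groups, so slide and group cannot be told apart for any probe. All 6 proximal tubule markers, the main cell type of the cortex, exceeded the 75th percentile in all 6 rats, at 5.15 to 8.20. In such bulk tissue, fewer cells of a type and less RNA per cell cannot be told apart.

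None of the 18 probes passed the threshold in either direction: 0 were higher and 0 lower with phenolphthalein (limma, Benjamini-Hochberg over 43473 tested probes, smallest adjusted p among the 18 = 0.446). Over all tested probes the same rule called 0.0% in each direction. At an unadjusted p under 0.05, 2 of the 18 probes were higher, against 3.91% of all tested probes, and 1 was lower, against 4.91%, or 3 in all against 8.82%. These were 1 probe each of Hif1a and Vegfa on the higher side and the probe of Ankrd37 on the lower side. The groups did not overlap for 3 higher probes, against 6.64% of all tested probes, and for 1 lower probe, against 8.98%. Taking for each gene the probe with the highest mean, 7 of 9 genes had higher values and 2 lower, with a median difference of 0.061 on the log2 scale. Over all 12269 named genes tested in the same way the median was -0.018, and 44.4% had higher values. Apart from Ankrd37 and Vegfa, every gene differed by less than 0.1 on this scale.

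**Figure D1:**
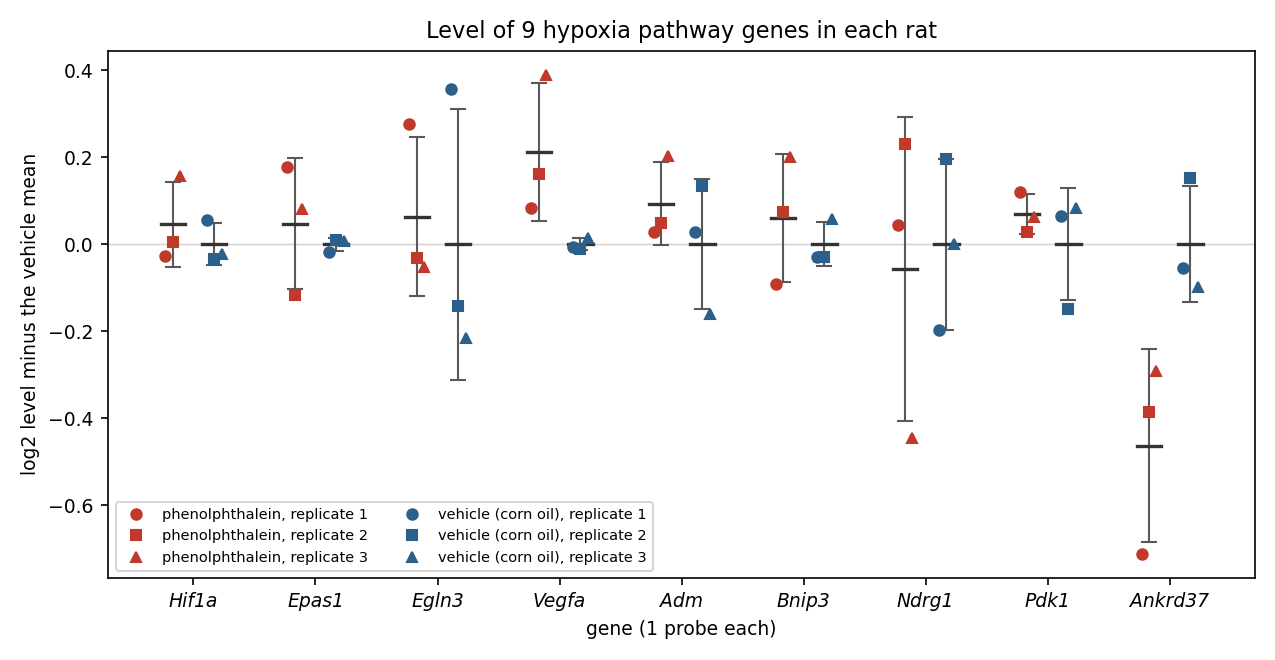
The log2 level of each of 9 genes, 1 probe per gene, is plotted minus the mean of its vehicle rats; points are single rats, long ticks are group means and bars are SDs (n = 3 each), with phenolphthalein in red and vehicle in blue. The groups are apart for Vegfa (difference 0.21) and Ankrd37 (-0.46) and overlap for the other 7 genes.

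Hif1a encodes the HIF-1 alpha subunit. Its brightest probe stood at 2.95, 2.98 and 3.13 in phenolphthalein rats, against 3.03, 2.94 and 2.95 in vehicle rats. The groups overlapped, and the vehicle values lay within the span of the phenolphthalein values but for 1 rat. The means were 3.02 ± 0.098 with phenolphthalein and 2.97 ± 0.049 with vehicle (SD, n = 3 each), a difference of 0.046 (SE 0.068, adjusted p = 0.868) by limma, with a 95% interval of -0.12 to 0.21. Leaving out 1 rat gave -0.0100 to 0.082. A second probe, A_44_P397495, differed by 0.090 (SE 0.062, adjusted p = 0.711), with its lowest phenolphthalein value at 1.57 and its highest vehicle value at 1.56. The third, A_64_P081874, stood at -1.57, -1.61 and -1.61 in phenolphthalein rats, against -1.83, -1.87 and -1.95 in vehicle rats. Its groups did not overlap, and the difference was 0.29 (SE 0.080, adjusted p = 0.461) by limma, with an unadjusted p of 0.00899. That probe kept an unadjusted p under 0.05 in all 16 alternatives it entered, while the brightest probe did so in 0 of 17. All 3 probes carry the same RefSeq transcript and all had higher values with phenolphthalein, from 0.046 to 0.29.

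Epas1 encodes the HIF-2 alpha subunit, known in the kidney from the erythropoietin-producing interstitial cells and the endothelium. Its single probe stood at -0.016, -0.31 and -0.11 in phenolphthalein rats, against -0.21, -0.19 and -0.19 in vehicle rats. The vehicle rats were nearly alike (SD 0.015) and lay between the phenolphthalein rats (SD 0.15, n = 3 each). The difference was 0.048 (SE 0.091, adjusted p = 0.901) by limma, with a 95% interval of -0.17 to 0.26, and it stood at -0.018 without phenolphthalein replicate 1 and at 0.13 without phenolphthalein replicate 2. Egln3 encodes a prolyl hydroxylase that marks HIF alpha subunits and is itself a HIF target. It stood at -0.98, -1.28 and -1.31 in phenolphthalein rats, against -0.90, -1.40 and -1.47 in vehicle rats. In each group replicate 1 was the highest, and the difference was 0.064 (SE 0.17, adjusted p = 0.935) by limma. Its spread within the vehicle group (SD 0.31) exceeded that of 84.0% of tested probes, the 95% interval was -0.35 to 0.47, and with normexp background correction the difference turned to -0.00026. Without vehicle replicate 1 it was 0.24, and without vehicle replicate 3 it was -0.044.

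Vegfa encodes the main vascular endothelial growth factor and had 6 probes, 4 on 1 RefSeq transcript and 2 on another. The brightest, A_64_P099886, stood at 4.29, 4.37 and 4.60 in phenolphthalein rats, against 4.21, 4.20 and 4.23 in vehicle rats. The groups did not overlap, since the vehicle rats agreed closely (SD 0.014) while the phenolphthalein rats spread (SD 0.16, n = 3 each). The difference was 0.21 (SE 0.082, adjusted p = 0.543) by limma, a 1.16-fold level, with an unadjusted p of 0.0367 and a 95% interval of 0.017 to 0.41. Without phenolphthalein replicate 3, the highest rat, the difference was 0.12 and the unadjusted p 0.0692, and without 1 vehicle rat the limma p was 0.0712 to 0.0855. With the median over its probes, Vegfa was no longer under an unadjusted p of 0.05.

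The other 5 Vegfa probes gave differences between -0.071 and 0.12, and their groups overlapped. In 4 of them phenolphthalein replicate 2 was the lowest of the 6 rats and phenolphthalein replicate 3 the highest. Without phenolphthalein replicate 2, 3 of them reached an unadjusted limma p under 0.05, at 0.28 (A_44_P300751, adjusted p = 0.454), 0.20 (A_64_P099891, adjusted p = 0.454) and 0.19 (A_43_P15572, adjusted p = 0.487). With all rats, A_44_P300751, for example, stood at 0.55, 0.10 and 0.60 in phenolphthalein rats, against 0.20, 0.31 and 0.39 in vehicle rats. The brightest probe shared the high value of phenolphthalein replicate 3 and not the low one of replicate 2. The remaining probe, A_64_P155983, stood at -0.88, -0.84 and -0.56 in phenolphthalein rats, against -0.76, -0.61 and -0.69 in vehicle rats, with a difference of -0.071 (SE 0.11, adjusted p = 0.871) by limma. Adm encodes adrenomedullin, a vasodilator peptide induced by low oxygen in many tissues. It stood at 3.16, 3.18 and 3.33 in phenolphthalein rats, against 3.16, 3.26 and 2.97 in vehicle rats. Vehicle replicate 2 lay above 2 of the phenolphthalein rats, and the difference was 0.094 (SE 0.091, adjusted p = 0.792) by limma, with a 95% interval of -0.12 to 0.31. It was 0.039 without phenolphthalein replicate 3, 0.16 without vehicle replicate 2 and 0.013 without vehicle replicate 3.

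**Figure D2:**
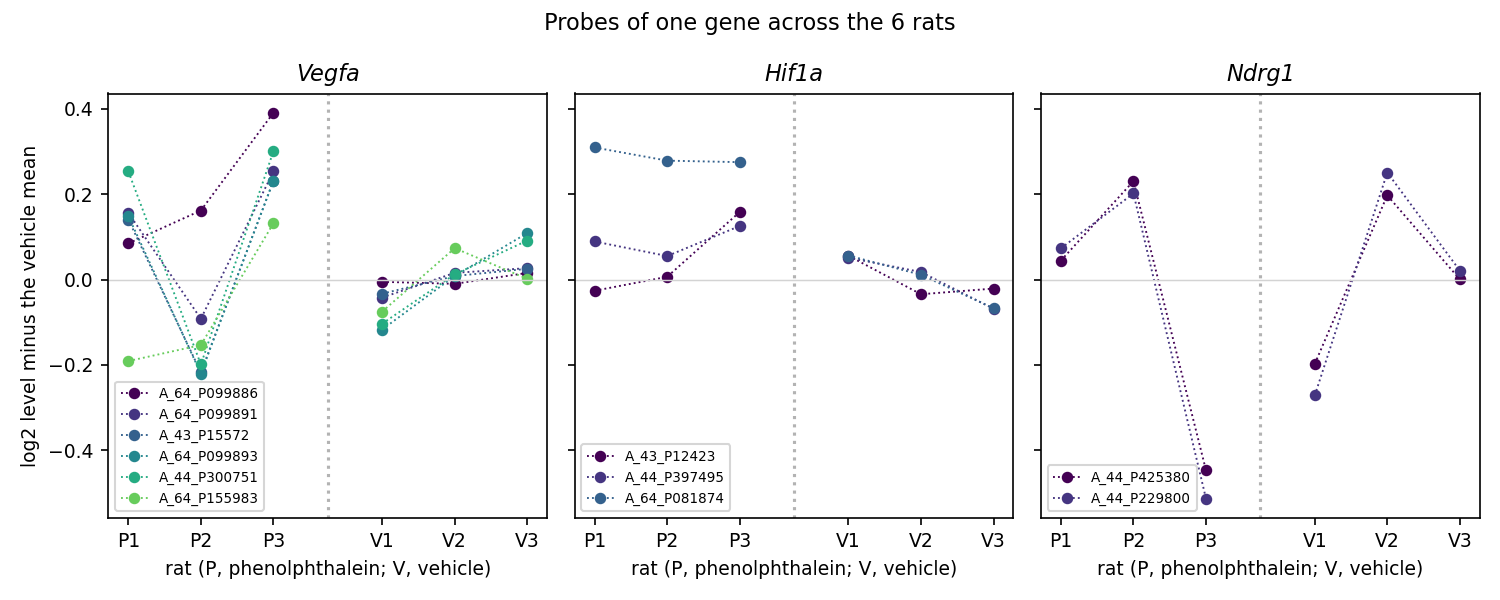
Each panel shows the probes of Vegfa, Hif1a or Ndrg1 as log2 level minus the probe's vehicle mean in the 3 phenolphthalein rats (P1 to P3) and the 3 vehicle rats (V1 to V3); dotted lines join the points of 1 probe and imply no order of rats. The 2 Ndrg1 probes follow each other from rat to rat, 4 Vegfa probes share a low P2, and the 3 Hif1a probes differ between the groups by 0.046 to 0.29.

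Bnip3 encodes a receptor on the outer mitochondrial membrane that marks mitochondria for autophagy. Its brightest probe stood at 4.83, 5.0 and 5.12 in phenolphthalein rats, against 4.89, 4.89 and 4.98 in vehicle rats. The groups overlapped, with phenolphthalein replicate 1 the lowest of all rats and replicate 3 the highest. The differences of its probes were 0.061 (SE 0.080, adjusted p = 0.850) and 0.042 (SE 0.054, adjusted p = 0.849) by limma. The first of these was 0.14 without phenolphthalein replicate 1, -0.0094 without phenolphthalein replicate 3 and 0.11 with normexp. Pdk1 encodes a kinase that shuts off pyruvate dehydrogenase and so keeps pyruvate from conversion to acetyl-CoA in the mitochondria. It stood at -2.29, -2.39 and -2.35 in phenolphthalein rats, against -2.35, -2.56 and -2.33 in vehicle rats. Apart from vehicle replicate 2, which was the lowest, the rats of both groups were interleaved, and the difference was 0.071 (SE 0.10, adjusted p = 0.865) by limma, with a 95% interval of -0.17 to 0.31. Without vehicle replicate 2 it was -0.0038.

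Ndrg1, a stress-response gene strongly induced by hypoxia in cultured cells, had the widest spread of the 9 genes among phenolphthalein rats. Its brightest probe stood at 6.01, 6.19 and 5.52 in phenolphthalein rats, against 5.77, 6.16 and 5.96 in vehicle rats. Phenolphthalein replicate 3 was the lowest of all rats and phenolphthalein replicate 2 the highest. The second probe repeated this order within each group, at 2.51, 2.64 and 1.92 in phenolphthalein rats, against 2.17, 2.69 and 2.46 in vehicle rats. The SDs of the brightest probe were 0.35 with phenolphthalein and 0.20 with vehicle (n = 3 each), larger than those of 83.7% and 70.1% of tested probes in these groups. The difference was -0.057 (SE 0.18, adjusted p = 0.944) by limma, with a 95% interval of -0.48 to 0.37. Without phenolphthalein replicate 3 it was 0.14, and without vehicle replicate 2 it was 0.041. With quantile normalization it was -0.020.

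Ankrd37, a HIF-1 target encoding a small ankyrin-repeat protein, had the largest difference of the 9 genes. It stood at 2.51, 2.84 and 2.94 in phenolphthalein rats, against 3.17, 3.38 and 3.13 in vehicle rats. Every phenolphthalein rat lay below every vehicle rat, with phenolphthalein replicate 1 the lowest. The means were 2.76 ± 0.22 with phenolphthalein and 3.23 ± 0.13 with vehicle (SD, n = 3 each), a difference of -0.46 (SE 0.12, adjusted p = 0.446) by limma, a 0.725-fold level with an unadjusted p of 0.00702 and a 95% interval of -0.75 to -0.17. Leaving out 1 rat gave -0.55 to -0.34, the smallest size without phenolphthalein replicate 1, and the unadjusted p stayed under 0.05 in all 17 alternatives that fitted the probe itself. It is the sole probe for the gene, so no other probe can be set beside it.

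Macrophage markers differed in the direction of Ankrd37. All 5 tested of 6 had lower values with phenolphthalein. Of them 4 had a limma unadjusted p under 0.05, against 6.01% of all named genes on the lower side. The exception was Csf1r, at -0.16 (limma unadjusted p = 0.152) and -0.047 by its other probe, with groups that overlapped in both. Cd163 was not well above background on enough arrays to be tested. The summed linear level of the tested markers, in units of the 75th percentile, was 45.4 to 53.0 in phenolphthalein rats and 63.4 to 75.2 in vehicle rats. Cd74, the brightest, weighs most in that sum and differed by -0.48. Relative to each gene's vehicle mean, the macrophage average was lowest in phenolphthalein replicate 1 (-0.52) and highest in vehicle replicate 2 (0.13). These were also the rats with the lowest and highest Ankrd37. The order of phenolphthalein replicates 2 and 3 differed. The macrophage average was -0.31 and -0.48 in them, and Ankrd37 was 2.84 and 2.94. Phenolphthalein replicate 1 was also lowest by the proximal tubule average (-0.21) and by that of thick limb and collecting duct (-0.28). Both tubule averages rose from phenolphthalein replicate 1 to 3, as Ankrd37 did. They were -0.11 and -0.012 for proximal tubule in replicates 2 and 3, and -0.17 and -0.039 for thick limb and collecting duct. Vehicle replicate 2 was highest in neither tubule average (-0.021 and -0.18). Of these tubule markers, 5 of 6 and 4 of 5 tested had lower values, against 55.6% of all named genes. The largest of these differences was that of Aqp2, at -0.58 (limma unadjusted p = 0.0212), with groups that did not overlap. Its second probe was at -0.49, with groups that overlapped. The part of any of these cells in the result was not tested. The 3 named genes whose profiles over the 6 rats, each centred on its own mean, lay nearest to that of Ankrd37 were Nckap1l, Exog and Gzmm, with root mean square differences of 0.0277, 0.0538 and 0.0671 on the log2 scale. They were picked for this nearness from the named genes tested, so the likeness by itself shows no link. Nckap1l, a regulator of the actin skeleton in blood cells, stood at -0.80, -0.47 and -0.41 in phenolphthalein rats, against -0.15, 0.081 and -0.13 in vehicle rats. Exog stood at -3.33, -3.01 and -2.94, against -2.79, -2.59 and -2.81, and Gzmm at -1.76, -1.44 and -1.45, against -1.24, -0.98 and -1.33.

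Endothelial markers, the cells on which VEGF acts, had 3 higher and 2 lower values among 5 tested, with a median of 0.0068. Their summed level was 29.9 to 34.7 in phenolphthalein rats and 28.5 to 31.7 in vehicle rats. Kdr, the brightest, weighs most in that sum and differed by 0.19 (limma unadjusted p = 0.0712). Pecam1 and Emcn differed by 0.029 and 0.0068. The lower ones were Tek (-0.098) and Cdh5 (-0.15, limma unadjusted p = 0.112), and the groups did not overlap for Cdh5. Liver markers reached their highest summed level, 24.4, in phenolphthalein replicate 2. The other phenolphthalein rats were at 7.46 and 7.40, and vehicle rats at 5.30 to 11.7. By the brightest probe of each of the 9 genes, only Ndrg1 was highest in phenolphthalein replicate 2, and only Epas1 was lowest there. Most of the dimmer Vegfa probes were also lowest in that rat.

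**Figure D3:**
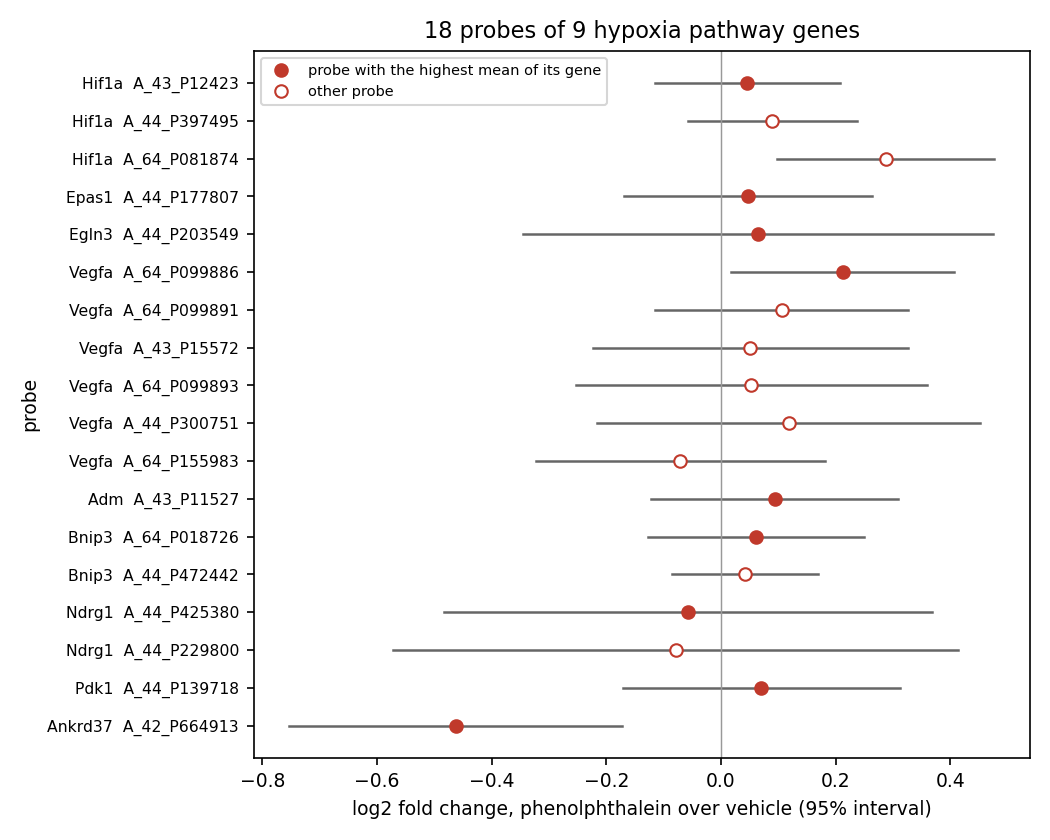
Points are log2 fold changes of phenolphthalein over vehicle for the 18 probes, filled for the probe with the highest mean of its gene, and bars are 95% intervals from limma (n = 3 each). Only the intervals of A_64_P081874 (Hif1a), A_64_P099886 (Vegfa) and A_42_P664913 (Ankrd37) leave out 0, and 0 of the 18 probes passed after adjustment.

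A wider list of 77 genes of the pathway was read beside these 10. Of them 72 had a matched probe and 70 were tested. By limma, 0 passed the threshold upwards and 0 downwards, the smallest adjusted p being 0.431. At an unadjusted p under 0.05, 4 were higher, 5.71% against 4.09% of all named genes, and 4 were lower, 5.71% against 6.01%. The groups did not overlap for 4 higher and 7 lower of the 70 genes, against 6.28% and 10.1% of all named genes. The median difference was -0.034. These shares lie near the background. They count the brightest probe of each gene, and Elob, Pfkl, Flt1 and Cxcr4, named after their values were seen, had an unadjusted p under 0.05 in other probes alone.

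Among 10 HIF subunits and oxygen-sensing genes, 8 had lower values by their brightest probe (median -0.049), and 0 of these probes reached an unadjusted p under 0.05. Elob, which encodes elongin B, a partner of VHL, had 4 probes, all lower in phenolphthalein rats with groups that did not overlap. Its brightest differed by -0.043 (limma unadjusted p = 0.357), and the other 3 differed by -0.11, -0.13 and -0.12 (limma unadjusted p = 0.0415, 0.0166 and 0.0426, smallest adjusted p = 0.487). Arnt, the constant partner of the alpha subunits, differed by -0.066 (SE 0.16, adjusted p = 0.922) by limma. Its probe was dim, with means of -4.43 with phenolphthalein and -4.36 with vehicle. Vhl, which binds hydroxylated alpha subunits, differed by 0.081 (SE 0.070, adjusted p = 0.764), and all 3 of its probes had higher values, up to 0.28. By brightest probe, the smallest p in this group belonged to Rbx1, a subunit of the ubiquitin ligase that holds VHL, at 4.06, 4.04 and 4.14 in phenolphthalein rats, against 4.22, 4.21 and 4.15 in vehicle rats. Its groups did not overlap, and the difference was -0.11 (SE 0.053, adjusted p = 0.605) by limma, or -0.073 with normexp. Its second probe overlapped and was at -0.039. Arnt2, a paralog of Arnt, differed by 0.28 (SE 0.14, adjusted p = 0.623), while 1 of its other 2 probes was at -0.16.

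Among 17 genes of glucose uptake and glycolysis, 8 had higher and 9 lower values, with a median of -0.0028. Slc2a1, the glucose transporter GLUT1, stood at 2.10, 1.90 and 1.86 in phenolphthalein rats, against 1.92, 1.83 and 1.90 in vehicle rats, with a difference of 0.069 (SE 0.080, adjusted p = 0.828) by limma. Pgk1, an ATP-forming enzyme of glycolysis, had small spreads and groups that did not overlap, at 7.29, 7.30 and 7.31 in phenolphthalein rats, against 7.17, 7.16 and 7.22 in vehicle rats. Its difference was 0.12 (SE 0.039, adjusted p = 0.507), and its other probe was at 0.13. Pfkfb4, which sets the level of a glycolytic activator, differed by 0.29 (SE 0.099, adjusted p = 0.516), and by 0.18 with normexp. Among 6 mitochondrial genes the values ran from -0.089 to 0.025. The 2 with the smallest p were the protease Lonp1 (-0.063) and Cox4i2, an alternative subunit of cytochrome c oxidase (-0.089).

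Among 12 vascular and secreted factors, 6 had higher and 6 lower values, with a median of 0.071. Edn1, the vasoconstrictor endothelin-1, stood at -4.10, -4.45 and -4.38 in phenolphthalein rats, against -4.54, -4.87 and -5.14 in vehicle rats. The groups did not overlap, and the difference was 0.54 (SE 0.21, adjusted p = 0.549) by limma. With normexp it was 0.27 on this dim probe. Angpt2, a ligand of the endothelial receptor Tek, differed by -0.26 (SE 0.11, adjusted p = 0.561), with lower values in all 3 of its probes. Epo, which encodes erythropoietin, had 2 probes. One was well above background on 1 phenolphthalein array and 1 vehicle array and the other on none, so Epo was not tested and no fold is given. Of the 4 tested genes of iron and haem handling, 3 had lower values, among them Hmox1, a haem-degrading enzyme, at -0.18 (SE 0.083, adjusted p = 0.598), and the transferrin receptor Tfrc, at -0.21 (SE 0.21, adjusted p = 0.800). Leaving out 1 rat gave Tfrc values of -0.44 to -0.0045.

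Among 7 genes of pH regulation and collagen modification, 5 had lower values (median -0.13). The 2 with the smallest p were collagen-modifying enzymes. Plod2, a lysyl hydroxylase, stood at -0.22, -0.041 and -0.54 in phenolphthalein rats, against 0.026, 0.22 and 0.093 in vehicle rats, a difference of -0.38 (SE 0.13, adjusted p = 0.520) by limma, with lower values in all 3 of its probes. P4ha1, a collagen prolyl hydroxylase subunit, differed by -0.23 (SE 0.095, adjusted p = 0.557). The groups did not overlap in these probes of Plod2 and P4ha1, and they overlapped in the other 2 probes of Plod2.

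Among 14 transcription, growth and other targets, 5 had higher and 9 lower values. Ddit4, an inhibitor of the growth kinase complex mTORC1 that also responds to glucocorticoids and DNA damage, had the largest difference of the 70 genes. It stood at 1.83, 2.24 and 1.38 in phenolphthalein rats, against 2.71, 2.59 and 3.29 in vehicle rats. Every phenolphthalein rat lay below every vehicle rat, a difference of -1.05 (SE 0.26, adjusted p = 0.431) by limma, a 0.484-fold level. Its other 2 probes gave -0.95 and -0.79. In all 3 probes phenolphthalein replicate 3 was the lowest and vehicle replicate 3 the highest. Wsb1, a substrate adaptor of a ubiquitin ligase, stood at 4.21, 4.47 and 4.04 in phenolphthalein rats, against 3.64, 3.90 and 3.99 in vehicle rats, a difference of 0.39 (SE 0.13, adjusted p = 0.507), and its second probe was at 0.42.

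**Figure D4:**
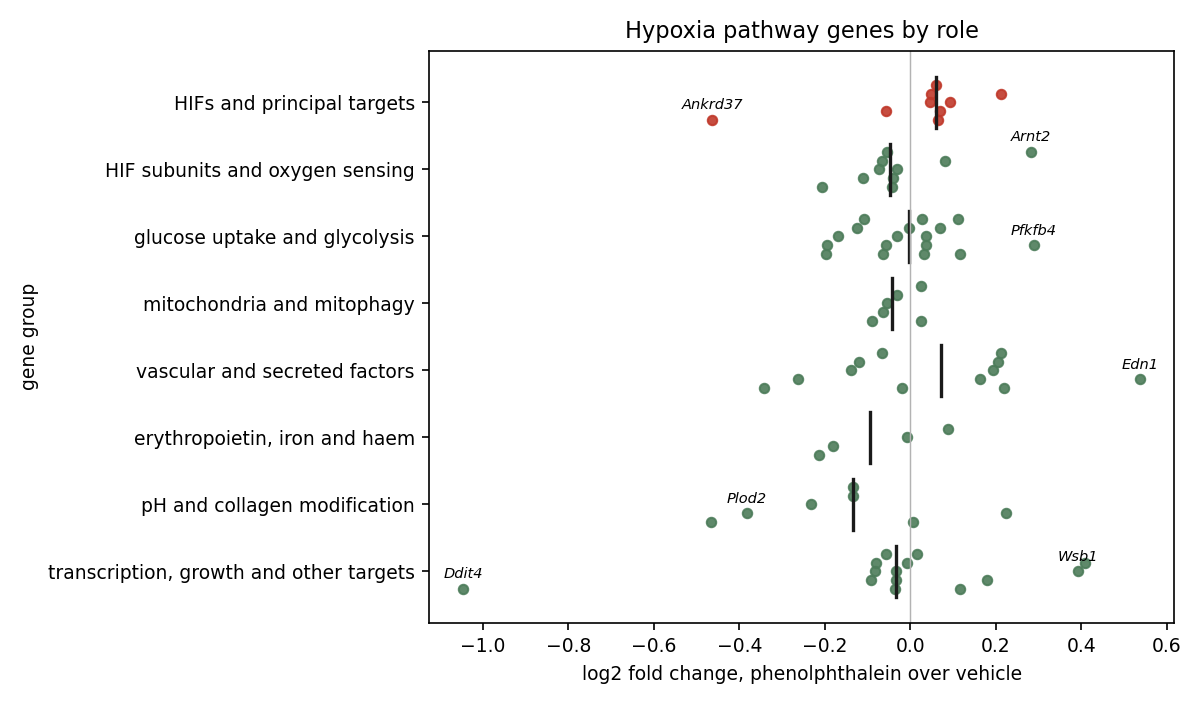
Points are log2 fold changes of phenolphthalein over vehicle, 1 probe per gene, for the 9 HIF and principal target genes (red) and 70 other genes of the pathway by role (green), with the median of each group as a black bar. Ddit4 is at -1.05 and Edn1 at 0.54, which was 0.27 with normexp; group medians lie between -0.13 and 0.071.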

How the data were processed

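Total RNA of 6 renal cortices was labelled with Cy3 and hybridised to 1-colour Agilent rat arrays, 1 per rat. The intensity of each spot was deposited after background subtraction and detrending by Agilent Feature Extraction 10.7.1.1, per the file headers; the submitters' processing notes name version 10.7. The deposited value table is a linear ratio whose making is not given in the sources used here. Each of its 6 columns matched the processed intensity over the 75th percentile of an array, but of another replicate of the same group (SD of the log2 difference 0.00426 to 0.00720). It is not centred on genes, its column medians are 0.102 to 0.106, and replicate identity within a group is unsettled. The scanner files were used with their own replicate names, and the table was an alternative; 0 of its columns were left out.

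Values are log2 intensity minus the log2 75th percentile of non-control probes. Outlier spots (2 to 14 per array) were set to missing, and 0 probes were saturated. Probes were named by RefSeq accession through a GRCr8 gene table: 27460 matched 1 symbol and 34197 none. Probes well above background on at least 3 arrays were kept, 43473 in all. The comparison used limma 3.58.1 in R 4.3.3 (intensity trend, both directions, Benjamini-Hochberg over all kept probes, threshold 0.05). Where 1 value per gene is given, it is that of the probe with the highest mean. On data simulated for this comparison over 43448 probes, the fit recovered 26.5% of probes changed 1.5-fold, 55.2% at 2-fold, 82.0% at 4-fold and 92.3% at 8-fold. Each simulation changed 200 probes, drew independent normal noise without a slide effect, and gave 5.55 false calls on average. These rates hold for that setting and may be too high for the arrays themselves. The text names each of the 10 genes with all its probes, the 2 tested pathway genes with the smallest p in each role, Epo, Slc2a1, Arnt, Vhl and Ddit4, and the 3 genes nearest in profile to the gene with the smallest p. The genes and lists were chosen with earlier results of these data known. Normexp was run on median spot signals, since the scanner files used here have no mean signal column. Protein stretches of Hif1a and Epas1 were not analysed here. Precision is limited by having 3 arrays in each group. Alternatives were other background corrections, scalings, filters, variance models, probe summaries, blocks and leaving out each array.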

Additional observations from a re-analysis of the deposited data

How the results depend on the processing

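Of the 18 probes, 0 were past the threshold in either direction under every alternative run, and so were 0 of the 70 other pathway genes; with values this far from the threshold, these counts show little about stability. At an unadjusted p under 0.05, the count of higher genes among the 9 was 0 in place of 1 (Vegfa) without the intensity trend, with the slide as a random block and with the median over a gene's probes. It ran from 0 to 1 on leaving out 1 array, being 0 without phenolphthalein replicate 3 or any vehicle replicate. The count of lower pathway genes was 2 in place of 4 with normexp, median centring, no intensity trend and the slide block, and on leaving out 1 array it ran from 1 to 5; that of higher ones also ran from 1 to 5. The lowest higher count came without vehicle replicate 1 (1) and the next without vehicle replicate 2 (2), and the lowest lower count without vehicle replicate 2 (1). The median of the 9 genes lay between 0.035 and 0.092 on leaving out 1 array, and that of the pathway genes between -0.052 and -0.019.

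The sign changes were of differences that had not passed. With normexp, Egln3 was at -0.00026, and with the median over probes Arnt2 was at -0.16. Without phenolphthalein replicate 1, Epas1 was at -0.018, Egln3 at -0.042 and Slc2a1 at -0.0046. Without phenolphthalein replicate 3, Hif1a was at -0.0100, Bnip3 at -0.0094, Ndrg1 at 0.14 by both probes, and 2 dimmer Vegfa probes at -0.038 and -0.036. Without vehicle replicate 1, 1 of these was at -0.0054. Without vehicle replicate 2, Egln3 was at -0.0068, Pdk1 at -0.0038 and Ndrg1 at 0.041 and 0.046, and without vehicle replicate 3 Egln3 was at -0.044. The cause was not tested. On leaving out 1 array the highest values (for Ndrg1 the lowest) were Hif1a 0.082, Epas1 0.13, Egln3 0.24, Bnip3 0.14, Pdk1 0.11, Slc2a1 0.12, Ndrg1 -0.20 and -0.22 for its second probe, and 0.19 for each of the 2 Vegfa probes. The other 152 of 162 values of the 9 genes and 304 of 306 values of the 17 tested pathway genes named kept their direction. Sizes were less stable: on leaving out 1 array, 8 of the 9 genes (not Ankrd37) and 8 of the 17 pathway genes moved by over 1.5 times, and under the other alternatives 5 and 6 did.

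The replicate numbers do not pair the rats by the labels, and same-numbered rats did not deviate together (correlations -0.00852, -0.00914 and 0.0431). With the replicate block, 0 probes of the 9 genes passed in either direction, as without it.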

Other observations

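Among the pathway genes not named by the rule, P4ha2, a second collagen prolyl hydroxylase subunit, was picked after its values were seen. Its brightest probe stood at 1.70, 1.55 and 2.50 in phenolphthalein rats, against 2.36, 2.17 and 2.62 in vehicle rats. Of the phenolphthalein rats, 2 lay below every vehicle rat and the other among them, and the difference was -0.47 (SE 0.25, limma unadjusted p = 0.103). A second P4ha2 probe gave the same ranking of the phenolphthalein rats, with a difference of -0.51. Bhlhe40, a hypoxia-inducible and clock-linked repressor, also picked after its values were seen, had wide spreads (SD 0.57 with phenolphthalein and 0.54 with vehicle, n = 3 each) and a difference of 0.41 (SE 0.35, limma unadjusted p = 0.278).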
